A study of Mus musculus with 9 samples.

Results

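The transcription factors that hold hepatocytes in their differentiated state were followed through the liver libraries of 9 mice. The genes were picked by symbol: Hnf4a, Cebpa, Foxa1, Foxa2, Foxa3, Onecut1, Prox1, Nfia and Nfib, which are 9 of the 56748 genes of the deposited table and were all present in it. The choice of Nfib rested on its lower counts in the Indirubin group than in the Control group, so its values are described here without a p-value in any comparison. Bulk RNA sequencing of liver was done in 3 groups of 3 mice, labelled C57BL/6 and named C57BL/6J in the series text, purchased at 7 to 8 weeks of age. The DSS group received dextran sulfate sodium, a polymer that injures the colon lining, at 1.8% in drinking water for 3 cycles of 1 week each with a week of recovery after each, and 200 µL of sterile water by mouth every day. The Indirubin group carried the label DSS+Indirubin and received the same cycles with indirubin, a bis-indole pigment of the herbal preparation indigo naturalis, at 1 g/kg/day by mouth in the same volume. The Control group was labelled water and received the daily sterile water, but the series text speaks of colitis in the mice without exempting it, so whether it was free of DSS is uncertain beyond its label. No genetic alteration is given for any group, and each library is labelled as a separate mouse sample by its number alone, so p-values measure the spread between these samples.

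Hepatocyte identity rests on a small set of DNA-binding factors that occupy the same enhancers together and sustain one another's transcription. HNF4A is a nuclear receptor and the main organizer of the network, C/EBPα is a leucine-zipper factor that drives metabolic genes and restrains division, and the FOXA factors open chromatin from the earliest liver bud onward. ONECUT1 (HNF6) acts in both hepatocytes and bile ducts, PROX1 is a homeobox factor of hepatoblasts that represses parts of bile acid synthesis, and the nuclear factor I proteins NFIA and NFIB bind palindromic sites beside the others and take part in developmental switching.

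The liver was recognizable in every library, since all 15 hepatocyte markers were detected in each and their summed level spanned 15258 to 40600 CPM with overlap among the 3 groups. Normalized CPM is the count scaled to the library's effective size, set by TMM over all 9 libraries. Total counts ranged from 6514863 to 7944684, and mitochondrial transcripts took 71.6% to 91.3% of them, which left 569044 to 2132208 counts on nuclear genes. By group these were 569044 to 989212 in Control, 807612 to 2132208 in DSS and 701804 to 1910420 in Indirubin. Raw counts, and counts of 0, are therefore not of equal weight across the groups. A gene with 3 counts or fewer in each library of a group was treated as at the floor. Pancreatic acinar transcripts (19 listed genes, Clps the most abundant) summed to 1660 CPM in Indirubin-2 and 1650 CPM in Indirubin-3, against 10.5 CPM in Indirubin-1, 8.98 to 24.4 CPM in the Control libraries and 0 to 3.08 CPM in the DSS libraries. Marco, a scavenger receptor of macrophages, rose in DSS (2.43, adjusted p = 0.0443 by edgeR) and in Indirubin (3.82, adjusted p = 0.0468 by edgeR) against Control, and S100a8 (6.27) and S100a9 (5.12), which encode neutrophil proteins, rose in Indirubin against Control (adjusted p = 0.0288 for each by edgeR), calls that were all lost without any 1 of the Control libraries. Neutrophil transcripts (9 listed genes, led by S100a8) summed to 1.17 to 3.17 CPM in Control, 11.5 to 19.8 CPM in DSS and 26.8 to 246 CPM in Indirubin, and the 3 ranges did not overlap. In whole tissue, fewer cells of a type and less RNA per cell cannot be told apart, and this holds for each difference below.

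Promoters of the factors whose levels are described below are shown to place them in the genome. For 8 of the 9 genes a start-site window was found in the RefSeq promoter table of build GRCm38.p6, 12 windows in all, and the table was matched by symbol; Nfib had none. The 250 bases before the start are given 5′ to 3′ on the strand of the gene. Capitals mark the letters of the motifs searched on both strands: CAAAGTCCA and CAAAGGTCA for HNF4, TGTTTAC and TGTTTGC for FOXA, TTGCGCAA and TTGCGTCA for C/EBP, ATTGATT for ONECUT and TATAAA for the TATA box. The first 2 lines are the upstream and downstream promoters of Hnf4a, which start different isoforms, the next is Cebpa, and Foxa1 and Foxa2 are the pair of FOXA genes whose levels had opposite orders across the groups.
Hnf4a upstream promoter, chr2:163506607-163506856, plus strand: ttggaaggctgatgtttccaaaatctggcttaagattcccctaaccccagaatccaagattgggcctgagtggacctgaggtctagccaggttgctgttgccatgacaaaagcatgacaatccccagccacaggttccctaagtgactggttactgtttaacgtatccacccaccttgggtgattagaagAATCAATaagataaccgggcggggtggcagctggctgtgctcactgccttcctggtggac
Hnf4a downstream promoter, chr2:163546905-163547154, plus strand: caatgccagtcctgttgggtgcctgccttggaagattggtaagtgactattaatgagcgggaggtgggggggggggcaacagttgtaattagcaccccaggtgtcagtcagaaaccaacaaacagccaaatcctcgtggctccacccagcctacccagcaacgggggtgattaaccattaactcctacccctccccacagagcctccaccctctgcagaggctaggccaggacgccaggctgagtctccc
Cebpa, chr7:35119043-35119292, plus strand: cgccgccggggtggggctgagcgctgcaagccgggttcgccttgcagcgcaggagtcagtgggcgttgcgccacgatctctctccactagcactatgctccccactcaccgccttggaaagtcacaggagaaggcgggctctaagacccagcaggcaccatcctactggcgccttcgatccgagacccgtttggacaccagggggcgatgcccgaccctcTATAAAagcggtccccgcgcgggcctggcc
Foxa1, chr12:57546112-57546361, minus strand: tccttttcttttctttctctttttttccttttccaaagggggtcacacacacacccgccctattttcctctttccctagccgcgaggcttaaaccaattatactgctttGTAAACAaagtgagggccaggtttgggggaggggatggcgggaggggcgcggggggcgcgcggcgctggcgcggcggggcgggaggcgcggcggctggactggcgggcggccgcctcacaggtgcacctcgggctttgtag
Foxa2, first of its 3 windows, chr2:148046970-148047219, minus strand: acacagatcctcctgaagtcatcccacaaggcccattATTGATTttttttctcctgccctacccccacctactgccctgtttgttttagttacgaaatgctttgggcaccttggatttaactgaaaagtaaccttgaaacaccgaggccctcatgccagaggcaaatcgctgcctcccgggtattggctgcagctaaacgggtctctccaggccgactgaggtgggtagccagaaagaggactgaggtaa

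The upstream Hnf4a window held an ONECUT match on the reverse strand, ending 54 bases before the start, and the Foxa2 window held one on the forward strand. ATTGATT was present in 2.61% of all 32851 windows of this length. The Foxa1 window held a FOXA match, TGTTTAC on the reverse strand, a motif found in 3.17% of all windows, and the second Prox1 window held TGTTTGC, found in 4.3%. The Cebpa and Foxa3 windows each held a TATAAA on the forward strand, beginning 30 and 36 bases before the start, and 12.4% of all windows hold these letters in either direction. The C/EBP and HNF4 strings above were not matched in any of the 12 windows. The windows of Cebpa, Foxa1, Foxa3 and Onecut1 were 62% to 71.6% G or C, while those of Nfia and the upstream Hnf4a promoter had 44.8% and 51.2%, beside a median of 52.4% over all windows. A match describes letters and not binding, and the deposited data do not bear on promoter use.

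Under TMM scaling, Hnf4a was the factor with the steadiest level. This gene (ENSMUSG00000017950, GRCm39 chromosome 2, 163348728 to 163414830, plus strand) had 247, 467 and 346 counts in the Control libraries, 568, 383 and 831 in DSS and 344, 973 and 824 in Indirubin. Its normalized levels were 48.1, 82.3 and 84.3 CPM in Control, 67.3, 67.9 and 76.0 in DSS and 63.2, 79.7 and 71.2 in Indirubin. Control-1 was the lowest of the 9 and Control-3 the highest, and all DSS and Indirubin values lay between them. The group means were 71.5 ± 20.4, 70.4 ± 4.84 and 71.4 ± 8.29 CPM (SD, n = 3). The log2 difference of DSS from Control was 0.01 with a 95% interval of -0.65 to 0.68, and that of Indirubin from Control was 0.02 with an interval of -0.77 to 0.82, neither past the threshold (adjusted p = 1.00 and 0.987 from the quasi-likelihood test of edgeR, adjusted by the Benjamini-Hochberg method over all genes tested). These intervals leave room for a change to 0.586 or 1.77 times the Control level with indirubin. Over the 9 libraries the coefficient of variation was 15.8%, the smallest among the 9 genes, and the highest level was 1.75 times the lowest. Hnf4a also had the most counts of the 9 genes in every library, and counting error is larger where counts are few. Scaling by library size alone gave log2 differences of 0.71 for DSS and 1.06 for Indirubin against Control, beside medians of all genes of 0.70 and 1.11.

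Cebpa (ENSMUSG00000034957, chromosome 7, 34818718 to 34821353, plus strand) came next in steadiness. Its levels were 26.1, 45.3 and 25.3 CPM in Control, 25.7, 41.6 and 26.6 in DSS and 26.8, 27.6 and 20.5 in Indirubin, from between 104 and 337 counts a library. Control-2 and DSS-2 stood above the other 7 libraries, and the groups overlapped. The group means were 32.2 ± 11.3, 31.3 ± 8.95 and 25.0 ± 3.91 CPM (SD, n = 3). The log2 difference was 0.01 for DSS against Control, -0.33 for Indirubin against DSS and -0.34 for Indirubin against Control (interval -1.14 to 0.46, adjusted p = 0.770 by edgeR).

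**Figure D1:**
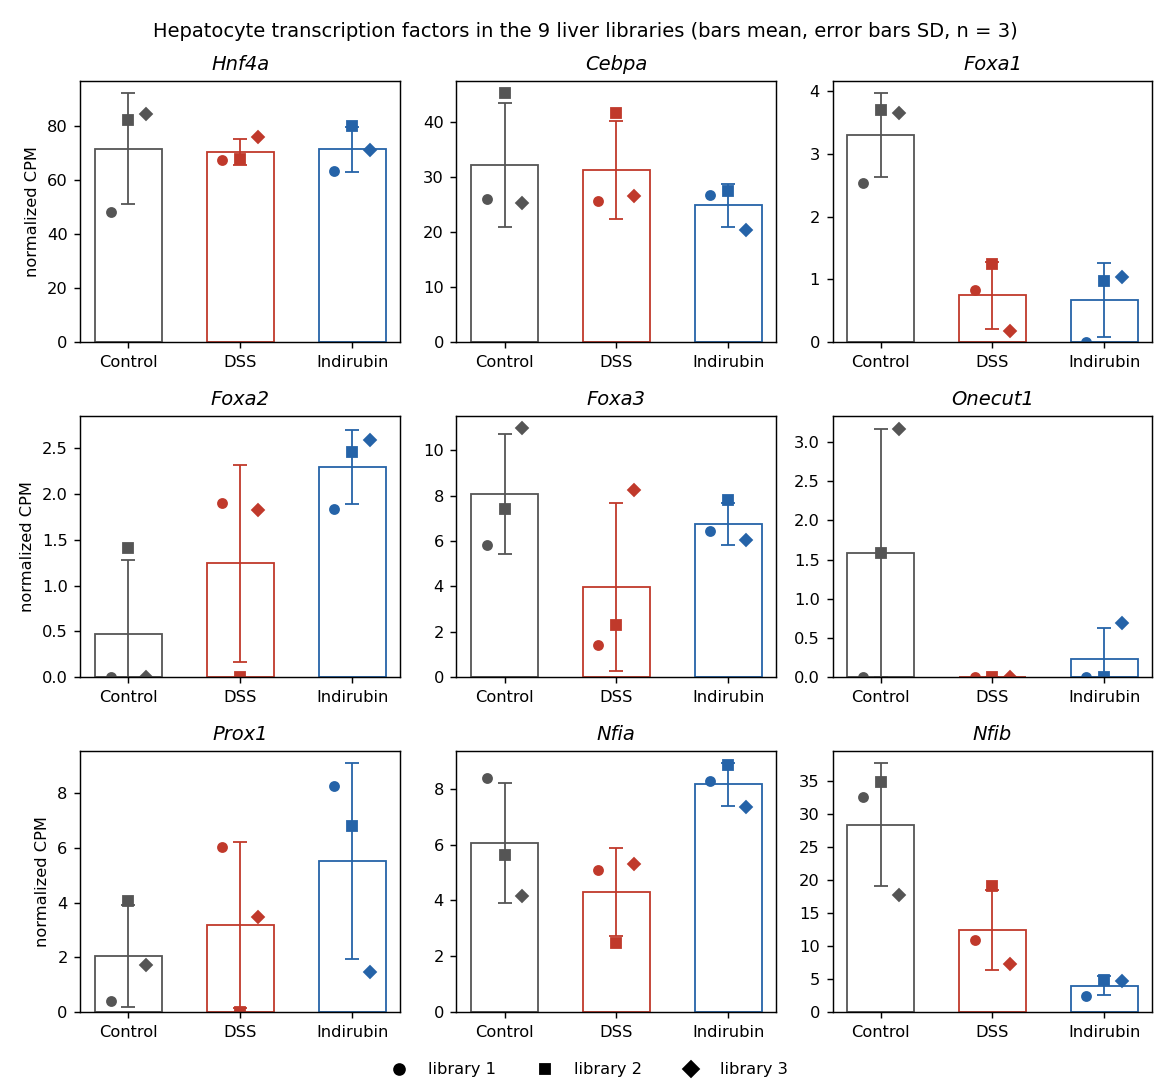
Normalized CPM (vertical axes, each from 0) of the 9 genes in the 3 Control, 3 DSS and 3 Indirubin libraries; symbols are single libraries, bars the group means and error bars the SD (n = 3). Hnf4a and Cebpa overlapped in all 3 groups, Foxa1 lay between 2.53 and 3.70 CPM in Control and at or under 1.24 CPM elsewhere, and Nfib had means of 28.4, 12.5 and 4.02 CPM in Control, DSS and Indirubin.

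The 3 FOXA genes, which encode the forkhead pioneer factors, differed in their order across groups. Foxa1 (ENSMUSG00000035451, chromosome 12, 57587414 to 57593702, minus strand) had 13, 21 and 15 counts in Control, 7, 7 and 2 in DSS and 0, 12 and 12 in Indirubin. These counts gave 2.53, 3.70 and 3.65 CPM in Control, 0.830, 1.24 and 0.183 in DSS and 0, 0.983 and 1.04 in Indirubin. Every Control library was above every other library. The log2 difference was -2.08 for DSS against Control (standard error 1.19, adjusted p = 0.808) and -2.15 for Indirubin against Control (standard error 1.08, adjusted p = 0.409), by edgeR, so neither passed the threshold. Between Indirubin and DSS the gene did not pass the filter on low counts.

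Foxa2 (ENSMUSG00000037025, chromosome 2, 147884797 to 147888889, minus strand) had the opposite order. It had 0, 8 and 0 counts in Control, 16, 0 and 20 in DSS and 10, 30 and 30 in Indirubin, or 0, 1.41 and 0 CPM, 1.90, 0 and 1.83 CPM, and 1.84, 2.46 and 2.59 CPM. The Indirubin libraries were all above the Control libraries and overlapped the DSS libraries, and DSS-2 was at 0. Indirubin against Control gave a log2 difference of 2.24 (standard error 1.34, adjusted p = 0.508 by edgeR), with an interval of -0.68 to 5.15, and Indirubin against DSS one of 0.86 (adjusted p = 0.972 by edgeR). Between DSS and Control the gene did not pass the filter. Foxa2 is also expressed in pancreas and gut, so the listed markers of both were read beside it. The acinar sums are given above. The 8 listed islet markers summed to 2.75, 3.69 and 5.88 CPM in the Indirubin libraries, against 0 to 1.95 CPM in Control and 0 to 2.61 CPM in DSS, with 2 to 5 of the 8 detected in Indirubin and at most 1 elsewhere. Ins1, an insulin gene, had 5, 12 and 5 counts in the Indirubin libraries and none in the other 6, while Gcg and Ppy were at 0 in all 9. The 10 intestinal epithelial markers summed to 6.43, 8.85 and 39.6 CPM in Indirubin, 0.974 to 10.1 CPM in Control and 5.69 to 7.27 CPM in DSS, and Cdx1 and Muc2 were at 0 in all 9. Indirubin-1 and Indirubin-2 thus lay within the Control range, and Reg3b alone made up 22.8 CPM of the sum in Indirubin-3. The part of these cells in the Foxa2 values was not tested.

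Foxa3 (ENSMUSG00000040891, chromosome 7, 18747209 to 18757463, minus strand), the FOXA gene with the highest level per kilobase in these livers, had 5.84, 7.40 and 11.0 CPM in Control, 1.42, 2.30 and 8.23 in DSS and 6.43, 7.78 and 6.05 in Indirubin. DSS-1 and DSS-2 were the lowest of the 9 libraries, while DSS-3 lay within the Control range, so the groups overlapped. The log2 difference was -0.998 for DSS against Control (adjusted p = 0.893), 0.74 for Indirubin against DSS (adjusted p = 0.924) and -0.22 for Indirubin against Control (adjusted p = 0.895), by edgeR. The first and second were -0.60 and 0.24 without DSS-1, -0.72 and 0.39 without DSS-2 and -2.05 and 1.85 without DSS-3, and library size alone gave -0.10 for the first.

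Onecut1 and Prox1 were near or at the limit of detection in several libraries. Onecut1 (ENSMUSG00000043013, chromosome 9, 74769203 to 74799063, plus strand) had 0, 9 and 13 counts in Control, none in the DSS libraries, and 0, 0 and 8 in Indirubin, and passed the filter in no comparison. Against the floor of 3 counts in each DSS library, its mean was at least 4.09-fold higher in Control, although Control-1 was also at 0 and the groups overlapped. Prox1 (ENSMUSG00000010175, chromosome 1, 189850232 to 189902911, minus strand) had 2, 23 and 7 counts in Control, 51, 0 and 38 in DSS and 45, 83 and 17 in Indirubin, equal to 0.389, 4.05 and 1.70 CPM, 6.05, 0 and 3.47 CPM, and 8.26, 6.80 and 1.47 CPM. Libraries of all 3 groups overlapped. Indirubin against Control gave a log2 difference of 1.43 with an interval of -0.44 to 3.30 (adjusted p = 0.511 by edgeR), and 2.40 without Control-2 and 0.90 without Control-1. PROX1 also marks lymphatic endothelium, whose 6 listed markers summed to 18.1 to 24.4 CPM in Indirubin, 12.7 to 33.9 CPM in Control and 5.30 to 16.8 CPM in DSS. Reln, which stellate cells also express, made up 11.2 to 27.4 CPM of the Control sums, and the other 5 markers summed to 1.46 to 6.42 CPM in Control, 2.93 to 12.2 CPM in DSS and 11.0 to 17.6 CPM in Indirubin. All Indirubin libraries were thus above all Control libraries in these 5 markers, a split made after their values were seen, and the part of lymphatic cells in the Prox1 values was not tested.

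The 2 nuclear factor I genes of the set had different orders across the groups. Nfia (ENSMUSG00000028565, chromosome 4, 97660971 to 98007111, plus strand) had 8.37, 5.64 and 4.14 CPM in Control, 5.10, 2.48 and 5.30 in DSS and 8.26, 8.85 and 7.34 in Indirubin. The Indirubin libraries were all above the DSS libraries and overlapped Control. The log2 difference of Indirubin from DSS was 0.91 (standard error 0.52, adjusted p = 0.767 by edgeR), and that from Control was 0.45 (adjusted p = 0.744 by edgeR).

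Nfib (ENSMUSG00000008575, chromosome 4, 82208410 to 82623987, minus strand) had 168, 198 and 73 counts in Control, 92, 108 and 80 in DSS and 13, 60 and 55 in Indirubin. Its normalized levels were 32.7, 34.9 and 17.8 CPM in Control, 10.9, 19.1 and 7.31 in DSS and 2.39, 4.92 and 4.75 in Indirubin. Every Indirubin library was below every DSS and Control library, and DSS-2 was the single DSS library above Control-3. The fitted log2 difference, a description for this gene, was -2.76 for Indirubin against Control, or 0.147 times the Control level. It was -1.61 for Indirubin against DSS and -1.14 for DSS against Control, comparisons that share libraries with the one that chose the gene. The lowest level of the 9 was in Indirubin-1, whose acinar sum was 10.5 CPM, and the log2 difference from Control was -3.57 with that library alone in its group. The part of pancreatic transcripts in the Nfib values was not tested. Scaling by library size alone gave -1.71 against Control, a scaling under which the median of all 8059 genes tested was 1.11 instead of 0.13.

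**Figure D2:**
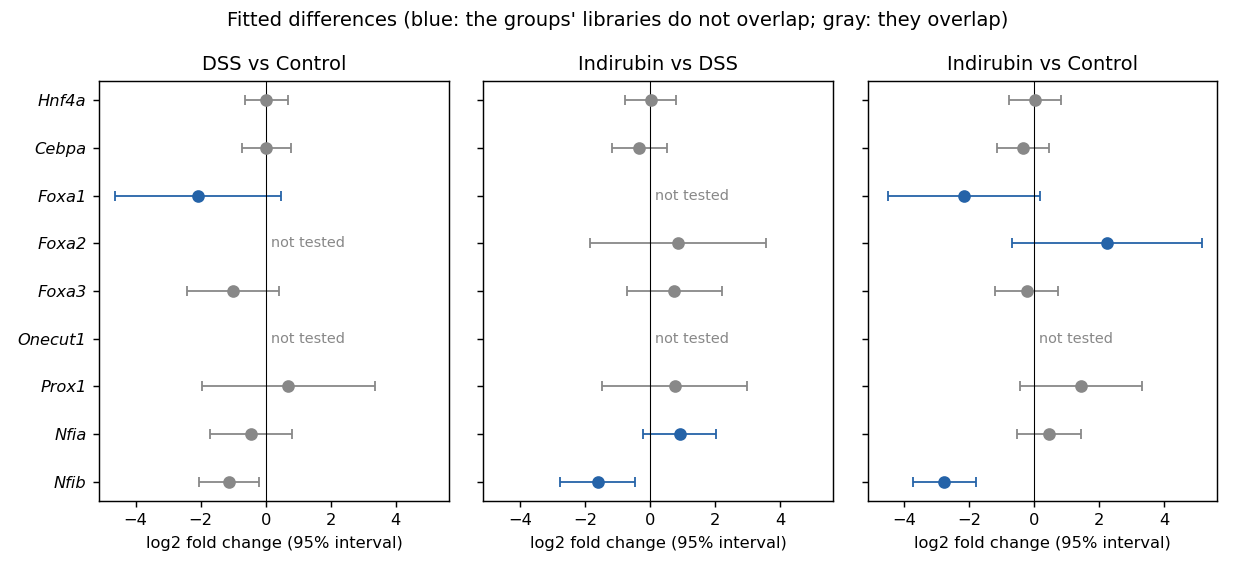
Fitted log2 fold changes (horizontal axes) with 95% intervals for the 9 genes in the 3 comparisons, which share libraries pairwise; blue marks genes whose libraries did not overlap between the groups, gray those that overlapped, and genes under the count filter are marked as not tested. The intervals of the 8 genes other than Nfib all included 0 where they were tested, and Nfib lay at -1.14, -1.61 and -2.76. No allowance is made in the Nfib intervals for how the gene was chosen, so nothing is read from them.

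The listed lengths of Nfib and Nfia, 14957 and 10891 bases, place both among the long genes of the table. Among the 843 genes over 10000 bases tested between Indirubin and Control, the median log2 difference was 0.31, beside 0.13 for all genes. In Indirubin against DSS the median of the 957 such genes was 0.50, beside 0.15 for all genes, and in DSS against Control that of 740 genes was -0.09, beside 0.01. The part of gene length in the values of Nfib and Nfia was not tested.

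Within a library, the counts of Nfib and Nfia can be set against each other without any scaling. Nfib made up 79.6%, 86.1% and 81.1% of their summed counts in Control, 68.1%, 88.5% and 58.0% in DSS and 22.4%, 35.7% and 39.3% in Indirubin. The highest Indirubin share, in Indirubin-3, had a 95% exact binomial interval of 31.1% to 47.9%, and the lowest share elsewhere, in DSS-3, one of 49.3% to 66.3%, both covering counting error only. Nfib counts exceeded Nfia counts in all 6 Control and DSS libraries and were below them in all 3 Indirubin libraries. Since Nfib was chosen for its level, this ratio describes the same measure.

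**Figure D3:**
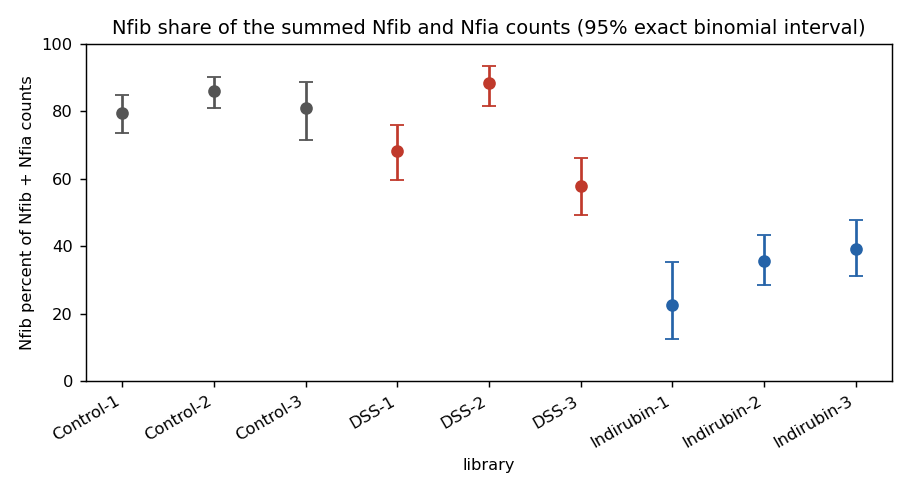
Percent of the summed Nfib and Nfia counts that were Nfib (vertical axis, 0 to 100) in each of the 9 libraries (horizontal axis), with 95% exact binomial intervals for counting error. The Indirubin libraries sat between 22.4% and 39.3% and the other 6 between 58.0% and 88.5%.

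Nfib was fitted with all genes, but no p-value is given for it because of how it was chosen. No other member passed the adjusted threshold in the 3 comparisons, and none of the others that were tested had an unadjusted edgeR p under 0.05. Over all genes, 0.708% of 7482 were called between DSS and Control, 0% of 9117 between Indirubin and DSS and 0.236% of 8059 between Indirubin and Control, at an adjusted p under 0.05. For the 0% of Indirubin against DSS, 700 genes had an unadjusted edgeR p under 0.05 and the DESeq2 Wald test called 80. Among the members that passed the filter, Nfib included, those whose libraries did not overlap between the groups numbered 1 of 7 in DSS against Control (Foxa1), where 15.6% of all genes did not overlap. They numbered 2 of 7 in Indirubin against DSS (Nfia and Nfib), beside 16.4% of all genes, and 3 of 8 in Indirubin against Control (Foxa1, Foxa2 and Nfib), beside 21.6%. Nfib entered by that last contrast, and Foxa1 and Foxa2 could not have passed the filter on low counts without the group in which they were high, so these counts and the medians that follow are descriptions and nothing is read from them. The median log2 difference of the same members was -0.45, 0.74 and -0.10 in the order DSS against Control, Indirubin against DSS and Indirubin against Control, and that of all genes was 0.01, 0.15 and 0.13. Without DSS-1 the 0.74, a median of 7 members, became 0.06, but 8 members passed the filter in that fit, so the genes differ.

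Ordered by mean normalized CPM per kilobase of listed length, Hnf4a and Cebpa led in every group. Hnf4a stood at 14.8 ± 4.22, 14.6 ± 1.00 and 14.8 ± 1.72 CPM per kilobase in Control, DSS and Indirubin (SD, n = 3), and Cebpa at 12.2 ± 4.29, 11.9 ± 3.40 and 9.47 ± 1.48. These neighbours overlapped in Control and DSS and did not overlap in Indirubin. Among the 1525 genes that the table assigns to a transcription factor family, Hnf4a ranked 3, 3 and 4 and Cebpa 5, 4 and 6. Foxa3 followed at 3.96, 1.96 and 3.32 CPM per kilobase, below all Cebpa libraries in each group. In Control the order went on with Nfib at 1.90, Foxa1 at 0.990, Nfia at 0.555, Onecut1 at 0.385, Prox1 at 0.244 and Foxa2 at 0.198 CPM per kilobase, and neighbours from Foxa1 downward overlapped. In Indirubin, Foxa2 at 0.969, Nfia at 0.749, Prox1 at 0.657, Nfib at 0.269, Foxa1 at 0.202 and Onecut1 at 0.0560 overlapped from each to the next. Nfib was at rank 50, 135 and 491 of the 1525 genes in Control, DSS and Indirubin.

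The relatives of these factors were read next, 11 genes of the same families. The C/EBP relatives Cebpb and Cebpd, which respond to inflammatory signals, did not pass the adjusted threshold in any comparison. Cebpb had 8.17, 10.04 and 10.5 CPM in Control, 10.3, 1.06 and 10.1 in DSS and 17.3, 20.6 and 21.3 in Indirubin, and every Indirubin library was above all 6 others. The log2 difference was 1.07 against Control (standard error 0.36, adjusted p = 0.195) and 1.45 against DSS (standard error 0.62, adjusted p = 0.618), by edgeR. Cebpd had 1.95, 1.41 and 0 CPM in Control, 2.13, 0.886 and 4.85 in DSS and 2.20, 10.6 and 10.6 in Indirubin, with a log2 difference of 2.79 against Control (adjusted p = 0.188 by edgeR). Indirubin-2 and Indirubin-3, the libraries with acinar and the most neutrophil transcripts, held the high Cebpd values; the part of other cells in them was not tested. Cebpg and Cebpz differed by 0.51 at most on the log2 scale in any comparison, at adjusted p of 0.767 or more by edgeR, and Cebpe had 15 counts or fewer in each library and was not tested.

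Onecut2, the homolog of Onecut1 shared with bile ducts and gut, had higher counts than Onecut1 and was lower in both DSS and Indirubin. Its levels were 21.8, 25.4 and 12.7 CPM in Control, 4.15, 8.15 and 5.03 in DSS and 4.77, 7.21 and 6.39 in Indirubin, so each Control library was above the other 6. The log2 difference was -1.74 for DSS against Control (standard error 0.44, adjusted p = 0.119 by edgeR) and -1.66 for Indirubin against Control (standard error 0.41, adjusted p = 0.106 by edgeR), neither past the adjusted threshold, and that for Indirubin against DSS was 0.10. Of the NFI relatives, Nfic had 15.0, 15.5 and 18.5 CPM in Control, 12.6, 10.8 and 8.78 in DSS and 7.895, 11.0 and 8.21 in Indirubin, with a log2 difference of -0.82 for Indirubin against Control (adjusted p = 0.348 by edgeR). Nfix overlapped among the groups, at 11.9, 7.60 and 12.3 CPM on average in Control, DSS and Indirubin. Hnf4g, Onecut3 and Prox2 had 16 counts or fewer in each library, were not tested, and had no counts in the Control libraries. At an unadjusted edgeR p under 0.05, 2 of 7 tested relatives were higher and 2 lower in Indirubin than in Control, beside 7.45% and 6.38% of all genes.

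**Figure D4:**
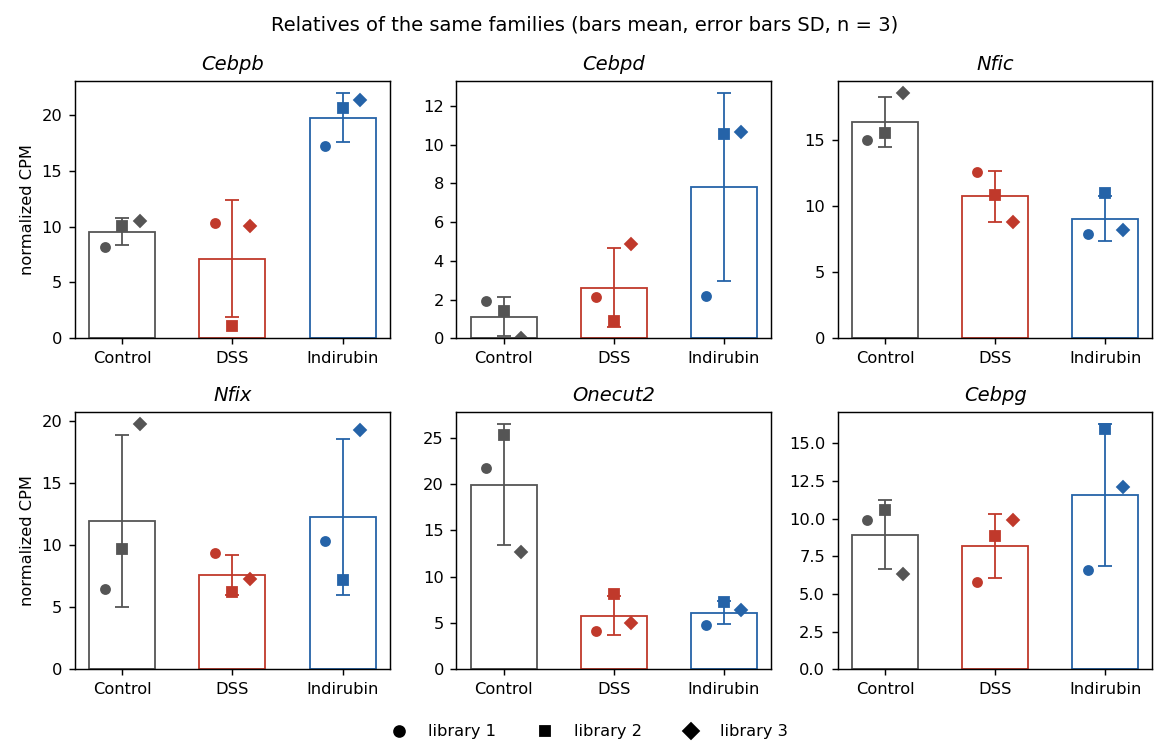
Normalized CPM (vertical axes, each from 0) of 6 relatives of the factors in the 9 libraries; symbols are single libraries, bars group means and error bars the SD (n = 3). The Indirubin libraries had 17.3 to 21.3 CPM of Cebpb against at most 10.5 CPM elsewhere, and the Control libraries had 12.7 to 25.4 CPM of Onecut2 against at most 8.15 CPM elsewhere.

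Genes that HNF4A is known to activate were counted next. None passed the adjusted threshold in Indirubin against Control, and the list was chosen with earlier results of these data known, so its counts are descriptions. Of 32 listed targets, 31 were in the table and 28 were tested in Indirubin against Control: 14 were lower and 1 higher at an unadjusted edgeR p under 0.05, beside 6.38% of all genes lower and 7.45% higher. Their median log2 difference was -0.96 against 0.13 for all genes, 13 of the 28 had all Indirubin libraries below all Control libraries (9.32% of all genes). The smallest p among them belonged to Apoa2, a protein of high-density lipoprotein, Otc, an enzyme of the urea cycle, and Proc, the anticoagulant protein C. Apoa2 had 1264, 1368 and 859 CPM in Control, 655, 911 and 1289 in DSS and 595, 205 and 179 in Indirubin, a log2 difference of -1.81 (adjusted p = 0.151 by edgeR). Otc and Proc differed by -1.62 and -1.31 (adjusted p = 0.155 for each by edgeR). Apoa4, an apolipoprotein that gut makes in quantity, went the other way at 3.30 (adjusted p = 0.211 by edgeR), from 0.918, 23.3 and 168 CPM in the Indirubin libraries.

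The lower values of the HNF4A list were not of one size across libraries or settings. The median distance of its 30 genes from the mean of the Control libraries was -0.71, -0.71 and -0.96 on the log2 scale in the Indirubin libraries, -0.57, -0.36 and 0.20 in DSS and 0.05, 0.27 and -0.32 in Control, so Indirubin-1 was as low as Indirubin-2. With Indirubin-1 alone in its group, 7 of 30 targets were lower at an unadjusted p under 0.05, beside 5.11% of all genes in that fit. The count was 7 of 28 without Indirubin-2, 8 of 30 without Indirubin-3, 6 of 30 without Control-1 and 6 of 29 without Control-2, where 3.35% to 4.60% of all genes were lower. Scaling by library size alone gave 1 of 28, beside 1.33% of all genes, and moved the median of all genes to 1.11. In Indirubin against DSS 5 of 30 were lower and 1 higher (3.22% and 4.45% of all genes), and in DSS against Control 3 of 29 were lower and none higher (4.05% of all genes lower). The hepatocyte markers as a list had a median of -0.20 in Indirubin against Control, beside 0.13 for all genes, with 4 of 15 lower and 2 higher at an unadjusted edgeR p under 0.05, beside 6.38% and 7.45% of all genes. One of them, Hpx, which encodes the heme-binding plasma protein hemopexin, rose in DSS against Control, with a log2 difference of 2.65 (standard error 0.51, adjusted p = 0.0321 by edgeR). Its levels were 603, 802 and 472 CPM in Control, 1305, 3583 and 6758 CPM in DSS and 649.8, 4078 and 5479 CPM in Indirubin. That call was lost without any 1 of DSS-2, DSS-3 and the Control libraries (adjusted p = 0.0718 to 0.340 by edgeR).

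Cyp8b1, the sterol 12α-hydroxylase that sets the make-up of the bile acid pool, was the HNF4A target that passed the adjusted threshold. It had 88, 144 and 37 counts in Control, 21, 17 and 23 in DSS and 73, 15 and 39 in Indirubin. The levels were 17.1, 25.4 and 9.01 CPM, 2.49, 3.01 and 2.10 CPM, and 13.4, 1.23 and 3.37 CPM. All DSS libraries were below all Control libraries, whereas Indirubin-1 lay in the Control range. In DSS against Control it dropped, with a log2 difference of -2.71 (standard error 0.50, adjusted p = 0.0245 by edgeR), and Indirubin against Control gave -1.55, at an unadjusted p of 0.0483 by edgeR. The call rested on single libraries: the adjusted p was 0.0527 without DSS-1, 0.119 without DSS-3, 0.127 without Control-1 and 0.247 without Control-2, and it was also above the threshold with all 9 libraries in 1 fit (0.171) and with scaling by library size alone (0.275), while the log2 difference stayed between -3.06 and -2.11 in these fits and those without the other libraries. Its promoter window, in build GRCm38.p6, is the one among the windows of the listed targets that held CAAAGTCCA. Here capitals mark that match alone, and the letters TATAAA in the window are in lower case.
Cyp8b1, chr9:121916306-121916555, minus strand: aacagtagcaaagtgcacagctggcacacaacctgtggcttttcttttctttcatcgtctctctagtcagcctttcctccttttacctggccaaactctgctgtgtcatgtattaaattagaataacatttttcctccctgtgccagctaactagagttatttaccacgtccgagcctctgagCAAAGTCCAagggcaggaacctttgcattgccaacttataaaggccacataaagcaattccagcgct

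This match ran from 67 to 59 bases before the start, and the same letters were present in 0.384% of the 32851 windows. Of 26 windows found for 23 of the listed targets, 7 held TGTTTGC, the FOXA letters that 4.3% of all windows hold, namely those of Abcg5, Abcg8, Apoa1, Apob, Nr1i2, Serpina1a and Slco1b2. The windows of Abcg5 and Abcg8, neighbours on opposite strands, overlap and share the same match. TGTTTAC was found in those of Apoa2 and Apoh, and CAAAGGTCA in that of F7. The list was made of known liver genes, so these shares are descriptions.

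Targets of the other factors were counted in the same way. Of 15 C/EBPα targets, 3 were lower and 1 higher in Indirubin than in Control at an unadjusted edgeR p under 0.05, beside 6.38% of all genes lower and 7.45% higher. Fasn, the fatty acid synthase (-2.21), Hamp, the iron hormone hepcidin (-1.95), and Ttr, the thyroxine carrier (-1.57), were the lower ones. The median log2 difference of the 15 was -0.67 beside 0.13 for all genes. For 5 of them all Indirubin libraries were below all Control libraries (9.32% of all genes). Hamp had 34 to 110 CPM in DSS and 6.999 to 20.2 CPM in Indirubin, a log2 difference of -2.63 (adjusted p = 0.352 by edgeR). Of 11 FOXA targets tested between Indirubin and Control, Ttr and Apob were lower and Igfbp1 higher (1.73, adjusted p = 0.286 by edgeR) at the same threshold, and the median was 0.26 beside 0.13 for all genes.

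**Figure D5:**
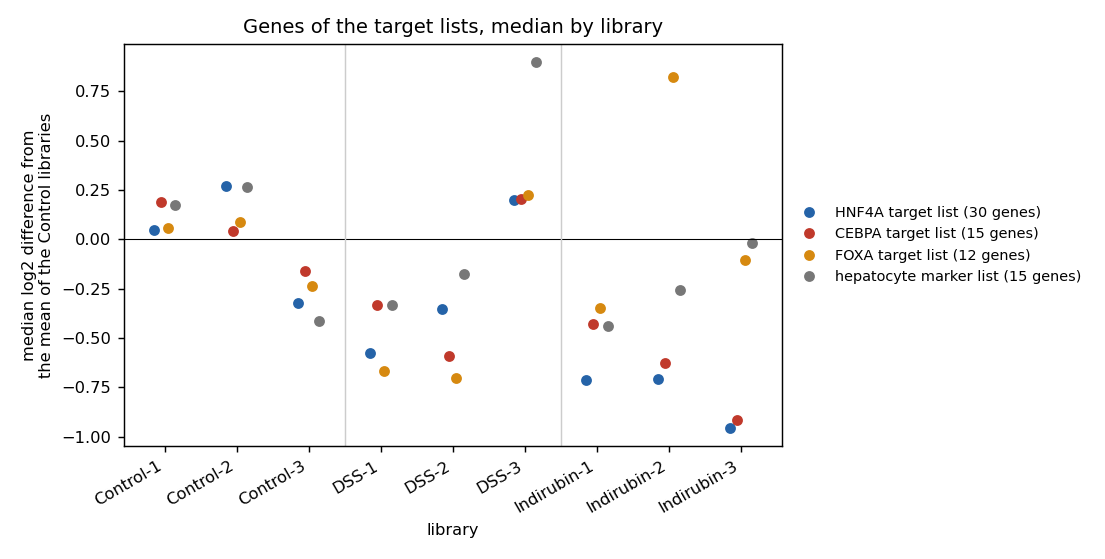
Median log2 difference (vertical axis) of the genes of the HNF4A, C/EBPα and FOXA target lists, and of the hepatocyte marker list, from the mean of the Control libraries, for each of the 9 libraries (horizontal axis); lists share some genes. The HNF4A list lay at -0.71, -0.71 and -0.96 in the Indirubin libraries and the C/EBPα list at -0.43, -0.63 and -0.92. There the FOXA list lay at -0.35, 0.82 and -0.10 and the hepatocyte markers at -0.44, -0.26 and -0.02.

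Partner factors of the network and their coregulators mostly did not pass a threshold. Of 34 partner factors, 29 were tested in Indirubin against Control, where 2 were higher and 2 lower at an unadjusted edgeR p under 0.05, beside 7.45% and 6.38% of all genes, so the counts lay near the background. Tef (1.35) and Zhx2 (1.44) were higher, and the lipogenic factors Srebf1 (-2.15, adjusted p = 0.120 by edgeR) and Mlxipl (-1.93) were lower. In DSS against Control 1 of 29 was higher at that threshold and none lower, beside 3.48% of all genes higher. This was Nr0b2, the corepressor SHP that bile acids induce, with a log2 difference of 1.82 (adjusted p = 0.477 by edgeR). In Indirubin against DSS 1 of 31 was higher and 3 lower, beside 4.45% and 3.22% of all genes. The log2 differences there were 1.73 for Zhx2, -1.53 for Srebf1 and -1.46 for Nr0b2 (adjusted p = 0.624 for Nr0b2 by edgeR). Of 9 coregulators tested between Indirubin and Control, 1 was higher at that threshold, Med1 (2.16, adjusted p = 0.224 by edgeR), and none lower.

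Genes with the profile nearest to each factor were sought among those with at least 10 counts in every library, by Pearson's correlation of log2 CPM over the 9 libraries, which share depth and groups. For Hnf4a these were Itsn1 (0.91), Klf15 (0.90) and Cmpk1 (0.88), and for Cebpa Tufm (0.90), Clec4f (0.89) and Pds5a (0.87). Those of Foxa1 were Ireb2 (0.93), Zranb1 (0.92) and Irgm1 (0.92), and those of Foxa2 were Sec61b (0.94), Rhog (0.92) and Rhoc (0.91). For Foxa3 they were Gm15501 (0.98), Psmd4 (0.95) and Cfl2 (0.91), and for Prox1 Itch (0.91), Setd3 (0.91) and Tfg (0.90). Nfia was nearest to Wbp2 (0.95), Nckap1 (0.87) and Fcna (0.87), and Nfib to Larp4b (0.97), Rbm5 (0.94) and Tmed5 (0.93). Between members, Foxa1 and Nfib had the highest coefficient (0.81) and Foxa2 and Nfib the lowest (-0.69). With 9 libraries and 3074 or 3075 genes compared, these coefficients describe the libraries.

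Transcripts that overlap the factors were mostly sparse. Hnf4aos, which overlaps Hnf4a, had 0, 3 and 0 counts in Control, 16, 9 and 19 in DSS and 2, 2 and 5 in Indirubin. Prox1os had 0, 4 and 0 counts in Control, 9, 18 and 9 in DSS and 3, 36 and 22 in Indirubin. All DSS libraries thus had more raw counts of both transcripts than any Control library, without scaling for depth. In normalized CPM, 15.6% of all genes tested did not overlap between these groups. Whether the counting used strand is not given in the sources used here, so reads in the stretch that an overlapping pair shares cannot be told apart. For Prox1 and Prox1os this stretch runs only from 189902481 to 189902911. The counts of Prox1os were above those of Prox1 in DSS-2 and Indirubin-3 and below them in the other 7 libraries. The other overlapping transcripts, 6 of Nfib, 2 more of Prox1 and 4 of Hnf4a, Cebpa, Onecut1 and Nfia together, had at most 11 counts in a library.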

How the data were processed

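Liver RNA of 9 mice was extracted by the authors with the RNeasy Plus Micro Kit, 400 ng went into each library, and sequencing was done on a DNBSEQ instrument. The reads were aligned to the mouse genome, GRCm39 in the submitters' processing notes; the aligner, the counting program, the annotation and the use of strand are not given in the sources used here. The authors deposited whole-number counts per gene, without normalization, for 56748 gene IDs. The same table holds FPKM values, which the authors made from the counts and gene lengths and which were not used, and the authors' own comparisons (group means, log2 fold changes and p-values), which were not used either.

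The members and the gene lists were chosen with earlier results of these data known. The 6 libraries of each comparison were fitted in R 4.3.3 by the quasi-likelihood functions of edgeR 4.0.16, after TMM scaling and filterByExpr (min.count 10, min.total.count 15), with Benjamini-Hochberg adjustment over all genes tested and calls at an adjusted p under 0.05. The paper names no test for RNA sequencing. The standard error is the size of the log2 fold change divided by the square root of F, and the 95% interval uses its t quantile. Log2 CPM carried a prior count of 2. Alternatives were DESeq2 1.42.0 (size factors and Wald test), library size alone, other filters, all 9 libraries, a replicate block, no mitochondrial genes, and each library left out. Depth, between 569044 and 2132208 nuclear counts, limits genes with few counts. Intervals on counts cover counting error only. Named were all members and relatives, any gene of a list past the adjusted threshold, genes among the 3 each way with the smallest p under 0.05 of a factor or target list (the others and those of marker lists are given as counts or sums), the 3 genes most alike to each member, overlapping genes, and the most abundant marker of a list; a few library values of further genes were added after they were seen. A few genes and a target list are not reported here. Promoter sequences are RefSeq's on GRCm38.p6 and were not joined to the GRCm39 coordinates of the table. Figures were drawn with matplotlib 3.10.9.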

Additional observations from a re-analysis of the deposited data

How the results depend on the processing

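The counts of called genes moved by more than 1.5 times under most alternatives. In DSS against Control, where 53 were called, library size alone gave 19, the DESeq2 Wald test 143, no filter on low counts 125, a filter of 10 counts in every library 84, all 9 libraries in 1 fit 11 and the replicate block 30. In Indirubin against DSS, where none was called, the same alternatives gave 2, 80, 156, 2, 4 and 3, and in Indirubin against Control, where 19 were called, 266, 316, 379, 72, 56 and 49. Leaving out 1 library gave 12 (without Control-2) to 64 (without DSS-1), 0 (without Indirubin-2) to 134 (without Indirubin-1), and 1 (without Control-2) to 465 (without Indirubin-1) in that order. DESeq2 size factors and the removal of mitochondrial genes kept all 3 counts within 1.5 times.

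No p-value is given for Nfib, and no alternative brought any of the 7 members tested beside it past the adjusted threshold in a comparison where that member had passed the filter. Onecut1 was not followed. When 1 library was left out, the median of the members ranged from -0.60 (without DSS-1) to -0.21 (without Control-1) in DSS against Control, from 0.06 (without DSS-1) to 0.77 (without Indirubin-3) in Indirubin against DSS and from -0.33 (without Control-1) to 0.08 (without Control-3) in Indirubin against Control. Either 7 or 8 members passed the filter in these fits, so the medians do not all cover the same genes. Library size alone gave 0.27, 0.88 and 0.93 in these comparisons, the first and the last with their sign turned, beside a median of all genes of 0.70, 0.43 and 1.11. In Indirubin against DSS the replicate block gave 0.98 over 7 members. A filter of 10 counts in every library gave 0.11, over the 5 members that passed it, so the genes differ. Nfib stayed negative in every fit, and between -3.04 and -2.64 in Indirubin against Control, the contrast that chose it, when 1 library was left out. Foxa2 in Indirubin against Control went from 1.63 (without Control-1) to 7.15 (without Control-2, which leaves no Control count).

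Signs turned mostly where the difference was near 0. For Hnf4a they did so in DSS against Control with all 9 libraries (-0.023) and leaving out 1 (-0.24 to 0.12); in Indirubin against DSS with no filter (-0.10), without mitochondrial genes (-0.0014), leaving out 1 (-0.12 to 0.070) and with Indirubin-1 alone (-0.15); and in Indirubin against Control with DESeq2 size factors (-0.0044), the Wald test (-0.0037), all 9 libraries (-0.0027), without mitochondrial genes (-0.019), leaving out 1 (-0.23 to 0.13) and with Indirubin-1 alone (-0.19). For Cebpa in DSS against Control it was with no filter (-0.0058), all 9 libraries (-0.044) and leaving out 1 (-0.30 to 0.29), and with library size alone it had 0.023 against DSS and 0.63 against Control in Indirubin. Library size alone also turned Nfia in DSS against Control (0.27) and Foxa3 in Indirubin against Control (0.81), and leaving out 1 gave -0.22 to 1.60 for Prox1 in DSS against Control and -0.44 to 0.031 for Foxa3 in Indirubin against Control.

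The HNF4A targets lower at an unadjusted p under 0.05 numbered 3, 5 and 14 in the order DSS against Control, Indirubin against DSS, Indirubin against Control, and 1, 2 and 1 with library size alone. In Indirubin against DSS the Wald test gave 8, no filter 9 and all 9 libraries 8. Leaving out 1 library gave 1 (without Control-2) to 4 (without DSS-3), 0 (without Indirubin-2) to 10 (without Indirubin-1), and 6 (without Control-1) to 14. A fit with Indirubin-1 as the one Indirubin library, added after seeing the data for the acinar transcripts of the others, assumes that it varies like the rest, and gave 0 in Indirubin against DSS and 7 in Indirubin against Control. Cyp8b1 in DSS against Control lost its call in 7 fits, with the replicate block at adjusted p = 0.0555 (edgeR). Causes of these shifts were not tested.

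The labels give no pairing of the mice by replicate number. Same-numbered libraries deviated from their group means with correlations of -0.026 to 0.027, which cannot settle whether the numbers share a batch. The replicate block moved the counts of called genes as given above (30, 3 and 49) and brought no tested member past the threshold.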
